A study of Mus musculus with 8 samples.

Results

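The Toll-like receptor family was followed in mouse myeloid cells that had been transformed by Hoxa9 and Meis1 and then lost Meis1. The family was taken as 10 genes, Tlr1 to Tlr9 and Tlr13, and a probe set belonged to it when its only gene symbol in the platform annotation was one of these. By this rule 9 of the 10 genes had a probe set, 13 probe sets in all among 45037, and no probe set carried the name Tlr13, which is not analysed here. Of the 9 genes, 7 had a probe set above the filter on low values and were tested among 11836 genes. Tlr3 and Tlr8 lay under that filter, and each of the 7 had a mean above it in both groups.

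All cells were bone marrow cells of C57BL/6 mice with Cre-ERT2, a recombinase that tamoxifen activates, knocked in at Rosa26, and all carried retroviral Hoxa9 together with a floxed Meis1 cDNA. The group called Meis1 deleted (4 arrays) received 2 µM 4-hydroxytamoxifen, and the group called Hoxa9 and Meis1 (4 arrays) received none, so that effects of the drug and of Cre cannot be told apart from those of the deletion. Both groups grew in interleukin-3. The labels name neither separate cultures nor more than 1 transformed line, so the p-values cover the spread between the samples at hand, which may be technical.

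Toll-like receptors are membrane proteins of innate immune cells that bind parts of microbes through leucine-rich repeats and signal through a TIR domain inside the cell. Tlr1, Tlr2, Tlr4, Tlr5 and Tlr6 act mainly at the cell surface, where Tlr2 pairs with Tlr1 or Tlr6 to bind bacterial lipopeptides. Tlr3, Tlr7, Tlr8, Tlr9 and Tlr13 act in endosomes and bind nucleic acids. Most members signal through the adaptor Myd88, whereas Tlr3 uses Ticam1 and Tlr4 uses both.

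Values are log2 expression, and each difference is the deleted group's mean less that of the Hoxa9 and Meis1 group. The error of a level is its SD over 4 arrays, and the error of a difference is limma's standard error. The arrays fell into 2 sets by the spiked bioB control, which averaged 4.04 to 4.28 in 5 arrays (Meis1 deleted replicates 1, 2 and 3, Hoxa9 and Meis1 replicates 1 and 2) and 6.43 to 6.61 in the other 3. The labels do not name these sets. The Meis1 probe set that passed the filter read 5.00 with the transgene and 5.02 after its deletion, and whether it lies in the transgene is not known here, so it does not check the labels. Meis1 deleted replicate 1 stood apart in RNA quality, with a 3′ minus 5′ difference of the Gapdh control of 0.72 against -0.07 to 0.04 in the other 7 arrays. The group difference of this control was 0.19 (two-sided exact permutation test, p = 0.486, smallest possible 0.0286).

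Among the 7 tested members, Tlr1, Tlr2, Tlr6 and Tlr7 rose and 0 fell, while Tlr4, Tlr5 and Tlr9 did not pass (limma, Benjamini-Hochberg adjustment over all genes). At an unadjusted p under 0.05 no member was lower either, against 2720 of the 11836 genes. This count of 0 holds with Tlr4 read by its brighter probe set. The other Tlr4 probe set fell when tested alone, and with probe sets averaged per gene Tlr4 fell too (-0.28, adjusted p = 0.00183), a count of 1. Of all genes tested, 37.8% changed, 19.1% higher and 18.7% lower. The groups did not overlap for the 4 members that rose, and 19.7% of all genes were higher without overlap. Tlr1, Tlr2 and Tlr7 rose at least 2-fold, as did 2.51% of all genes. The median difference was 0.63 over the 7 members and -0.0044 over all genes. Without Meis1 deleted replicate 1 the same counts, 4 higher and 0 lower, were found.

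Markers of mature myeloid cells moved in the same direction. All 9 macrophage markers rose, and their summed log2 level was 87.4 to 88.1 in deleted arrays and 55.9 to 57.0 in the others. The 6 measured neutrophil markers rose as well, with sums of 58.6 to 59.4 and 51.7 to 51.9. A bulk array cannot tell more cells of a type from more RNA per cell, and the part of these markers in the rises of the Toll-like receptors was not tested.

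**Figure D1:**
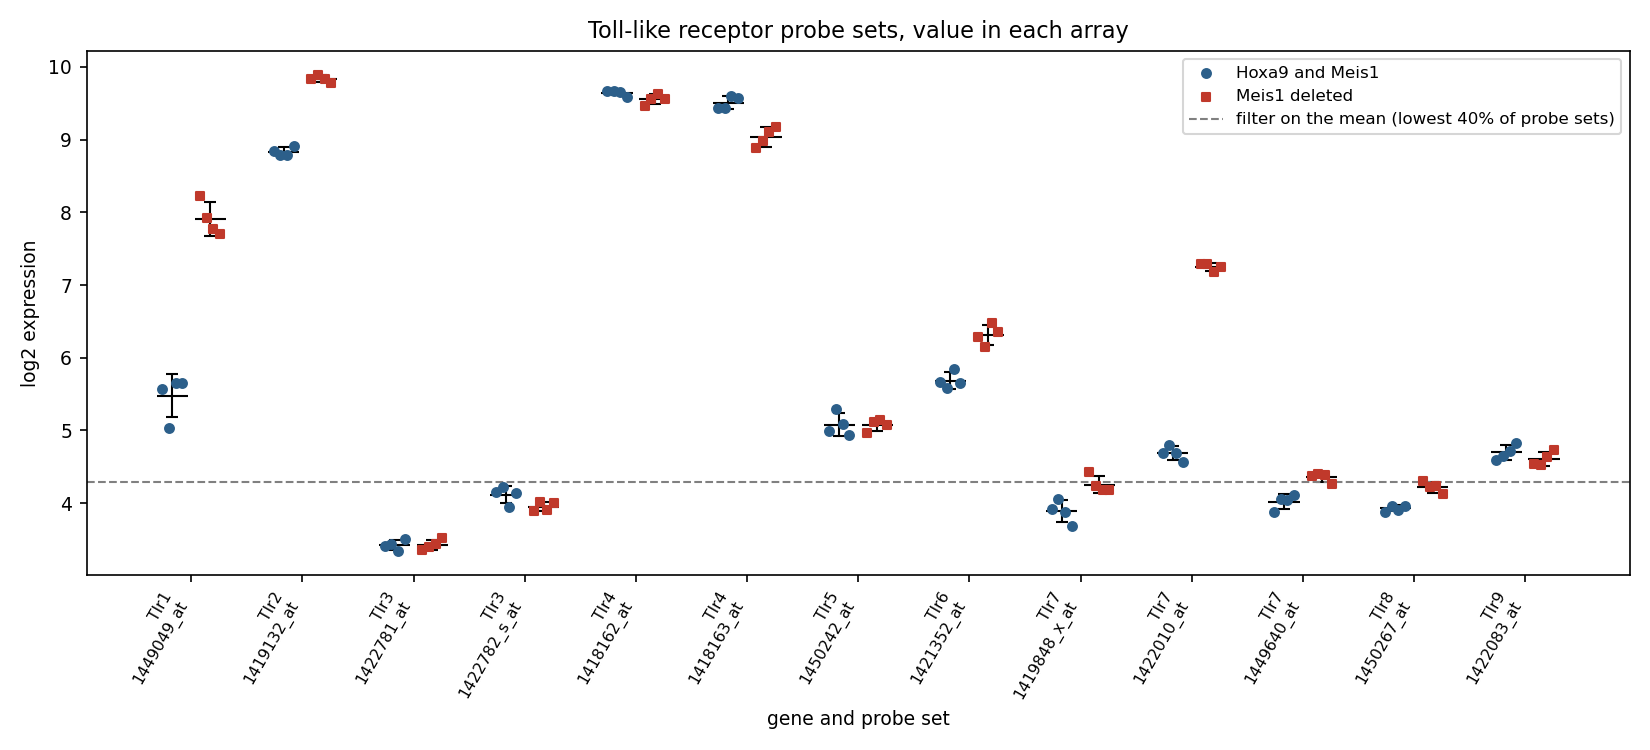
Log2 expression of each Toll-like receptor probe set in each array, with blue circles for Hoxa9 and Meis1, red squares for Meis1 deleted, and bars for the mean and SD of 4 arrays. Probe sets of Tlr1, Tlr2, Tlr6 and Tlr7 lie higher in every Meis1 deleted array than in any other array, and the dashed line is the filter at 4.29.

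The receptors for lipopeptides rose together. Their promoters are shown because Tlr1 and Tlr6, whose products each pair with that of Tlr2, moved the same way as Tlr2. Each runs from 250 bases before to 50 bases after an annotated start, 5′ to 3′ on the gene's strand, from RefSeq on GRCm38.p6. Capitals mark matches to the motifs searched on both strands, which were the interferon response element (GAAA, any 2 bases, then GAAA), the PU.1 core GAGGAA, the Meis motif TGACAG, the Hox-Pbx motif TGATTNAT and the NF-kB consensus.
Tlr1, chr5:64933509-64933808, minus strand: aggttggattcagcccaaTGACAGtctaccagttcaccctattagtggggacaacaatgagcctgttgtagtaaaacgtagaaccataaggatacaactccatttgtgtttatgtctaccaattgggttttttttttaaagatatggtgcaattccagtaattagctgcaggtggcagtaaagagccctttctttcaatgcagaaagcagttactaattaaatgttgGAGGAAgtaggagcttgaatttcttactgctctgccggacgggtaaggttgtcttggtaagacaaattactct
Tlr2, chr3:83841559-83841858, minus strand: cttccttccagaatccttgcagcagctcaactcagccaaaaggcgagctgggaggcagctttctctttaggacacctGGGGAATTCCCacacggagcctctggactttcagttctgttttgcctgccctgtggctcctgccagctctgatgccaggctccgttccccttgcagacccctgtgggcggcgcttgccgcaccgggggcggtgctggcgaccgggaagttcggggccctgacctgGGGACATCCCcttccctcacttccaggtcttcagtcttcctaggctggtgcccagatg
Tlr6, chr5:64959117-64959416, minus strand: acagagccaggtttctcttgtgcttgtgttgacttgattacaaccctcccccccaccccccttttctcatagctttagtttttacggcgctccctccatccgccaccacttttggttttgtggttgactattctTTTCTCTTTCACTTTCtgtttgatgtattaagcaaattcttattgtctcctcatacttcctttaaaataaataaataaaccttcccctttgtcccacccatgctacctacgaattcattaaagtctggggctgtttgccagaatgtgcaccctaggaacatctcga

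The Tlr2 window held 3 placements of the NF-kB consensus, of which the first 2 overlap, and 8.46% of 32851 promoter windows hold at least 1. The Tlr6 window held the interferon response element on its minus strand, in 2 placements that overlap, and 3.44% of all windows hold it. A further Tlr6 window held none of the motifs. The Tlr1 window held 1 PU.1 core (28.3% of all windows) and 1 Meis motif (19.2%), and its other window held none of them. For Tlr1 and Tlr6 the window with motif matches was the one printed. Among all 10 windows of 8 members, the Hox-Pbx motif (3.22% of all windows) was not found. Tlr4 and Tlr7 had no promoter window and were not searched. The NF-kB consensus was also found in Tlr3, which did not pass the test, and the PU.1 core in Tlr8, Tlr9 and Tlr13. A match describes the letters and not a bound site.

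Tlr2, the shared partner of the lipopeptide receptors, read 8.85, 8.79, 8.79 and 8.91 in the Hoxa9 and Meis1 arrays and 9.84, 9.89, 9.84 and 9.77 in the Meis1 deleted arrays. The groups were separated by a wide gap compared with the spread inside each. The difference was 1.00 ± 0.05 (95% interval 0.90 to 1.11, adjusted p = 1.06e-07), which is 2.00-fold.

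Tlr1, which joins Tlr2 to bind triacylated lipopeptides, read 5.57, 5.04, 5.65 and 5.65 in the Hoxa9 and Meis1 arrays. It read 8.23, 7.92, 7.77 and 7.71 in the Meis1 deleted arrays, so that every deleted array was above every other one. The difference was 2.43 ± 0.15 (95% interval 2.09 to 2.76, adjusted p = 9.05e-07), or 5.37-fold. The highest value came from Meis1 deleted replicate 1, without which the difference was 2.32. It was 2.66 within the first bioB set and 2.06 within the second, where a single deleted array was assumed to vary like the others.

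Tlr6, which joins Tlr2 to bind diacylated lipopeptides and lies beside Tlr1 on chromosome 5, read 5.67, 5.58, 5.84 and 5.65 with Meis1. After the deletion it read 6.28, 6.14, 6.48 and 6.36. The groups did not overlap, and the rise of 0.63 ± 0.08 (95% interval 0.45 to 0.81, adjusted p = 1.46e-04) was the smallest of the 4, at 1.55-fold. The intervals of Tlr1, Tlr2 and Tlr6 do not overlap each other.

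Adding 64 on the linear scale, which shrinks changes of dim probe sets, gave 1.48 for Tlr1, 0.32 for Tlr6, 1.27 for Tlr7 and 0.91 for Tlr2. The size of the rises in Tlr1, Tlr6 and Tlr7 therefore depends on how low values are treated, and the calls held with this offset.

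**Figure D2:**
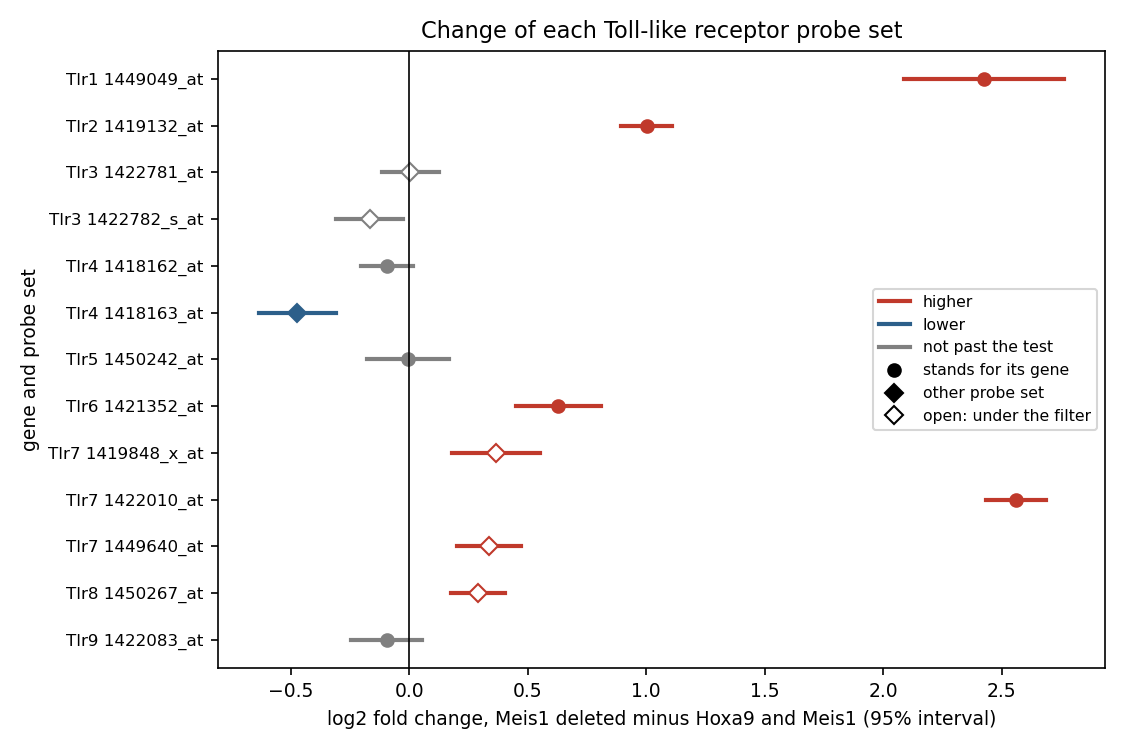
Log2 fold change of each Toll-like receptor probe set, tested alone without a filter, with its 95% interval. Red marks higher and blue lower in Meis1 deleted cells, grey did not pass the test, and open symbols lie under the filter. The main probe set of Tlr7 (2.56) and that of Tlr1 (2.43) lie farthest to the right, and one of the probe sets of Tlr4 (-0.47) lies to the left.

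Tlr4, the receptor for lipopolysaccharide, gave different results by probe set. The brighter one (1418162_PM_at), which stood for the gene, read 9.67, 9.67, 9.65 and 9.59 with Meis1 and 9.46, 9.56, 9.63 and 9.56 after the deletion. These ranges overlap, and the difference of -0.09 ± 0.05 did not pass (95% interval -0.20 to 0.01, adjusted p = 0.160). The other (1418163_PM_at) read 9.43, 9.43, 9.60 and 9.57 with Meis1 and 8.88, 8.98, 9.11 and 9.17 after it, with no overlap. Tested alone it fell by 0.47 ± 0.07 (adjusted p = 0.00118 over all probe sets, of which 18.8% changed, 10.1% lower). The mean of both probe sets fell by 0.28 (adjusted p = 0.00183).

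The brighter probe set exceeded the other by 0.39 to 0.58 in the deleted arrays and by 0.02 to 0.24 in the others (two-sided exact permutation test, p = 0.0286, the smallest possible, a test chosen after the values were seen). Without Meis1 deleted replicate 1, the array with the high Gapdh 3′ minus 5′ difference, the second probe set read -0.42 (adjusted p = 0.00106). It read -0.44 and -0.41 within the 2 bioB sets. The part of the Tlr4 transcript that each probe set covers was not known here.

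Tlr5, the flagellin receptor, stayed low and unseparated. It read 4.99, 5.29, 5.09 and 4.93 with Meis1 and 4.97, 5.11, 5.14 and 5.07 after the deletion, a difference of -0.0043 ± 0.08 (95% interval -0.18 to 0.17, adjusted p = 0.971). Its interval holds changes of either sign.

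Among the endosomal receptors, Tlr7, which binds single-stranded RNA and guanosine, rose most. Its main probe set (1422010_PM_at) read 4.69, 4.80, 4.69 and 4.57 with Meis1 and 7.29, 7.29, 7.18 and 7.25 after the deletion. The deleted arrays agreed closely with each other and stood far above the rest. The difference was 2.56 ± 0.06 (95% interval 2.44 to 2.69, adjusted p = 3.06e-10), or 5.90-fold.

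A pair of further Tlr7 probe sets, both under the filter, also passed when tested alone, with much smaller differences. The one named 1449640_PM_at read 4.02 ± 0.10 with Meis1 and 4.36 ± 0.06 after it (0.34 ± 0.06, adjusted p = 0.00282). The one named 1419848_PM_x_at read 3.89 ± 0.15 and 4.25 ± 0.12 (0.37 ± 0.08, adjusted p = 0.0115). The latter did not pass within the first bioB set (0.29, adjusted p = 0.141) or the second (0.40, adjusted p = 0.102), and the former did not pass within the second (0.19, adjusted p = 0.226). All 3 probe sets of Tlr7 were higher in each deleted array than in any other array. Of all probe sets, 23.9% were separated between the groups in either direction.

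Tlr8, the neighbour of Tlr7 on the X chromosome and likewise a receptor for RNA, lay under the filter in both groups. It read 3.88, 3.97, 3.91 and 3.96 with Meis1 and 4.31, 4.22, 4.23 and 4.12 after the deletion, without overlap. Tested alone it rose by 0.29 ± 0.05 (adjusted p = 0.00248, with 8.69% of probe sets higher). Within the second bioB set, with 1 deleted array, it did not pass (0.19, adjusted p = 0.219), and with an offset of 64 the rise was 0.06 (adjusted p = 0.00596).

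Tlr9, the receptor for unmethylated CpG DNA, did not pass. It read 4.59, 4.65, 4.72 and 4.83 with Meis1 and 4.54, 4.52, 4.63 and 4.73 after it, and the groups overlapped (-0.09 ± 0.07, 95% interval -0.24 to 0.05, adjusted p = 0.297). The upper bound of its interval lies far below the rise of Tlr7.

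Tlr3, the receptor for double-stranded RNA, lay under the filter by both of its probe sets. One (1422781_PM_at) read 3.42 ± 0.07 in Hoxa9 and Meis1 cells and 3.43 ± 0.07 in deleted cells (0.0053 ± 0.05, adjusted p = 0.962). The other (1422782_PM_s_at) read 4.12 ± 0.12 and 3.95 ± 0.06 (-0.17 ± 0.06, adjusted p = 0.106), with overlap between the groups. Without Hoxa9 and Meis1 replicate 3 it passed as lower (-0.22, adjusted p = 0.0240). Detection calls were not used, so whether such a level is above background was not tested.

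**Figure D3:**
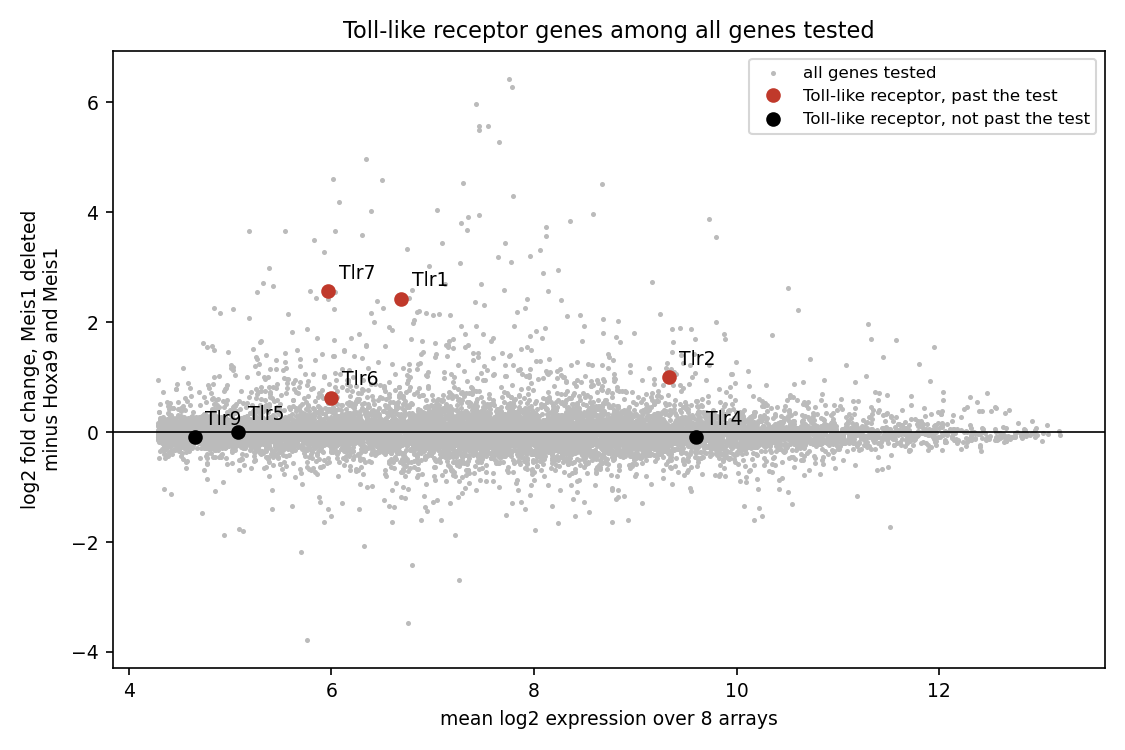
Log2 fold change against mean log2 expression over 8 arrays for the 11836 genes tested (grey) and the 7 Toll-like receptor genes among them (red past the test, black not). Tlr7 and Tlr1 lie at 2.56 and 2.43, Tlr2 and Tlr6 at 1.00 and 0.63, and Tlr4, Tlr5 and Tlr9 lie near 0.

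The genes that serve these receptors did not move as a block. Of 80 tested genes in the 7 lists of co-receptors, trafficking, adaptors, kinases, transcription factors, feedback and targets, 39 rose and 15 fell, with a median of 0.11 against -0.0044 over all genes. Over all genes 19.1% rose and 18.7% fell, and these shares are the background for the counts of every list. For counts lower at an unadjusted p under 0.05, the background is 2720 of 11836 genes. The share of pathway genes that fell was near the 18.7% of all genes, and the share that rose was above the 19.1%.

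The co-receptors split. Of 6 tested, 3 rose and 2 fell (median 0.11, but -0.04 with an offset of 64 and -0.31 under a filter of 60%). Ly96, which carries lipopolysaccharide on Tlr4, rose from 5.49 ± 0.04 to 6.58 ± 0.09 (1.08 ± 0.05, adjusted p = 1.29e-07), whereas Cd14, which passes lipopolysaccharide to that complex, fell by 0.41 ± 0.04 from 10.19 (adjusted p = 3.33e-05). Likewise Cd180, a relative of Tlr4, rose by 0.53 ± 0.09 while its partner Ly86 fell by 0.39 ± 0.05. Members of both complexes thus moved in opposite directions.

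Trafficking and endosomal processing genes had the highest median of these lists, and 9 of 12 rose with 0 lower by limma (0 lower at an unadjusted p under 0.05; the median was 1.09, or 0.67 with an offset of 64). Without Meis1 deleted replicate 3, 1 of them was lower. The proteases that can cut the ectodomains of endosomal receptors led the list. Legumain (Lgmn) rose by 5.29 ± 0.09 from 5.01, Ctsb by 1.96 ± 0.04, Ctsl by 1.37 ± 0.04 and Ctss by 1.24 ± 0.04. Unc93b1, which escorts nucleic acid receptors out of the endoplasmic reticulum, rose from 7.95 to 8.90 (0.95 ± 0.17, adjusted p = 0.00129), and the lysosomal transporter Slc15a3 rose by 3.02 ± 0.10. The chaperones Hsp90b1 (0.06 ± 0.05) and Cnpy3 (-0.13 ± 0.06), which fold these receptors, did not pass. Unc93b1, Slc15a3, Hsp90b1 and Cnpy3 were named after their values were seen.

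Adaptors changed by small amounts. Myd88, shared by most members, rose by 0.44 ± 0.04 (adjusted p = 2.81e-05) and Pik3ap1 by 0.36 ± 0.05, whereas Tirap, which brings Myd88 to Tlr2 and Tlr4, fell by 0.36 ± 0.06. Ticam1 and Sarm1 did not pass, at -0.01 ± 0.07 and -0.09 ± 0.08. The counts of this list were 2 higher and 1 lower of 5, and its median was -0.01, or 0.17 under a filter of 60%. Ticam1 and Sarm1 were named after their values were seen.

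Of 15 kinases and ubiquitin enzymes, 2 rose, 3 fell and 10 did not pass (median -0.0017). When probe sets were averaged per gene, 4 of them rose. Map3k8, which links the receptors to ERK, rose by 1.28 ± 0.11 from 4.90 and Ikbke, a kinase of interferon factors, by 0.39 ± 0.05. Tab3 fell by 0.33 ± 0.06 and the receptor-proximal kinase Irak2 fell by 0.33 ± 0.06.

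Of 9 transcription factors 4 rose and 0 fell by limma (0 lower at an unadjusted p under 0.05), with a median of 0.08, or 0.03 with an offset of 64. Irf7, which drives interferon genes below Tlr7 and Tlr9, rose by 0.96 ± 0.07 (adjusted p = 4.48e-06), Irf1 by 0.58 ± 0.05, Relb by 0.55 ± 0.08 and Irf3 by 0.44 ± 0.05.

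Feedback inhibitors went both ways, with 5 of 15 higher and 6 lower (median -0.09). Within the first bioB set 3 were lower, and the median was -0.01 there and -0.20 within the second. Atf3 rose by 1.43 ± 0.07 and Trafd1 by 0.93 ± 0.09, while Zc3h12a, an RNase that removes cytokine messages, fell by 0.95 ± 0.08 and Nfkbia, the inhibitor of NF-kB, fell by 0.47 ± 0.05.

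Of 18 tested genes that these receptors are known to induce, 14 rose and 3 fell, with a median of 0.49, or 0.30 with no filter and 0.33 with an offset of 64. The acute phase gene Saa3 rose by 3.88 ± 0.05, the chemokine Cxcl10 by 1.56 ± 0.08, Ccl5 by 1.44 ± 0.08 and Cxcl2 by 1.36 ± 0.05. The 3 that fell were Ptgs2 (-0.63 ± 0.11), Il12a (-0.58 ± 0.06) and Nos2 (-0.26 ± 0.05), named after their values were seen. The cytokine genes Il6, Il12b, Il10 and Ifnb1 and the chemokine Cxcl1 lay under the filter in these cells, between 3.25 and 4.21 in both groups, and were named after this was seen. With no filter Il6 rose by 0.24 (limma, adjusted p = 0.0149), and the others did not pass. Tnf, named after its value was seen, rose by 0.25 ± 0.07 (adjusted p = 0.0138).

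Other innate sensors rose in 7 of 11 cases and 1 fell (median 0.31, with 0.73 under a filter of 60% and 0.20 with an offset of 64). The DNA sensor Ifi204 rose by 3.80 ± 0.12, the RNA sensors Ddx58 by 1.84 ± 0.07 and Dhx58 by 1.65 ± 0.06, and Zbp1 by 1.45 ± 0.08. The inflammasome sensor Nlrp3, the sole fall, was lower by 0.56 ± 0.06 and was named after its value was seen. Tlr12, a member of the wider family outside the rule, read 4.74 ± 0.15 with Meis1 and 4.76 ± 0.17 after it (0.02 ± 0.10, adjusted p = 0.872), and was likewise named after its value was seen.

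**Figure D4:**
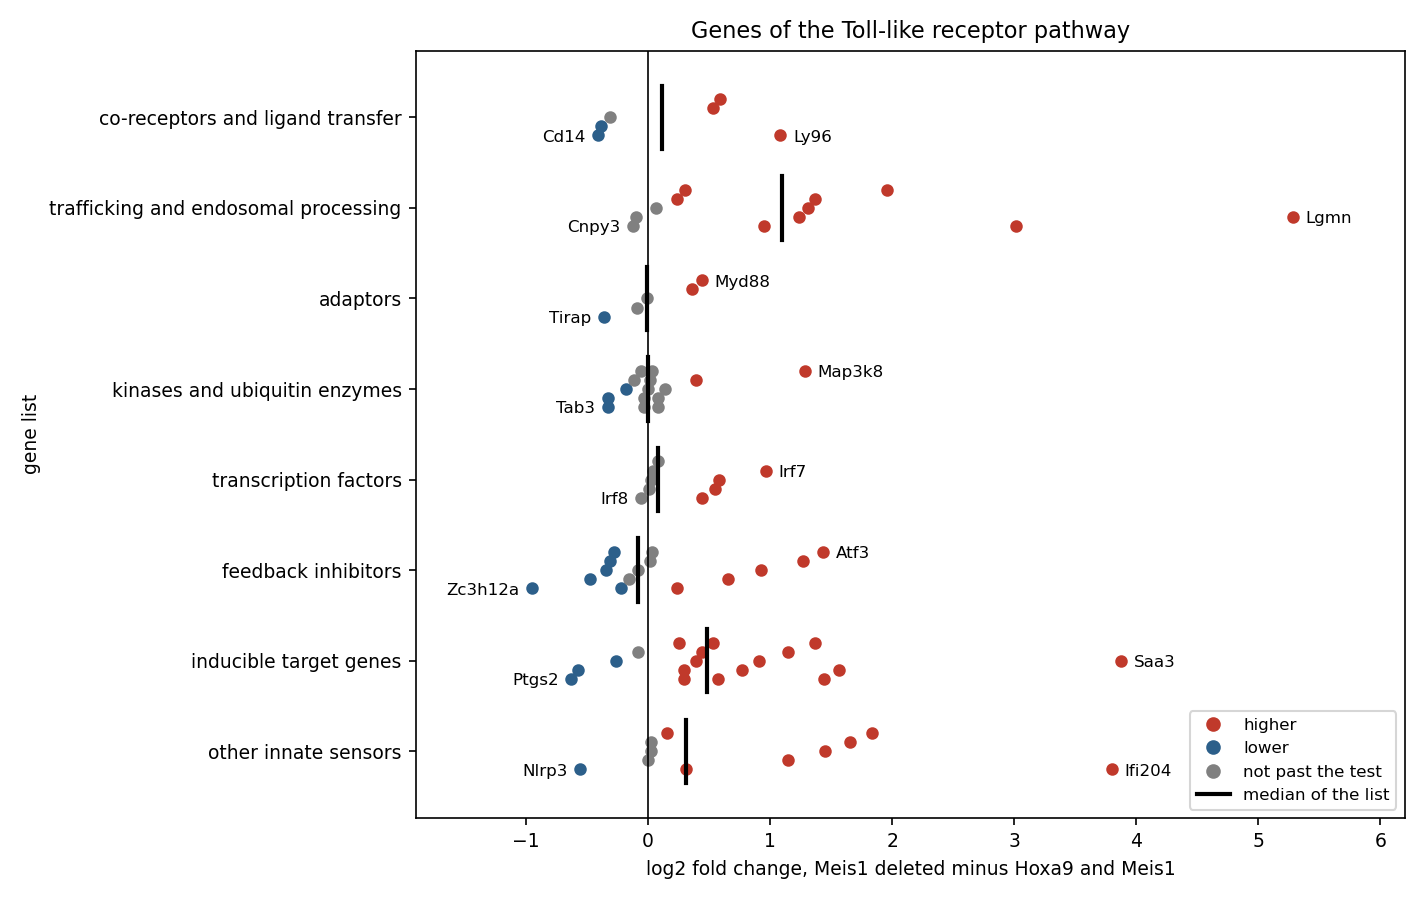
Log2 fold change of each tested gene in 8 lists around the Toll-like receptors, with red for higher, blue for lower, grey for not past the test and a black bar for the median of each list. The trafficking and processing list has the rightmost median (1.09) and holds Lgmn at 5.29, and feedback inhibitors reach from Zc3h12a at -0.95 to Atf3 at 1.43.

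Markers of plasmacytoid dendritic cells and B cells, which use Tlr7 and Tlr9, did not pass the test where they could be tested, 1 marker of the former and 2 of the latter. Of the former, Tcf4 was the only one above the filter (0.07 ± 0.08), and Spib read 3.42 in deleted and 3.49 in control arrays. Of the latter, Cd79a (-0.21 ± 0.13) and Ms4a1 (0.11 ± 0.05) were the ones tested. Pax5 (4.07 in deleted and 4.08 in control arrays) and Ebf1 (3.24 and 3.40) lay under the filter. Of the 3 T cell and 2 natural killer cell markers tested none passed by limma (1 natural killer cell marker was lower at an unadjusted p under 0.05), and the 4 stroma and endothelium markers all lay under the filter, so that 0 were tested. Of 3 tested mast cell or basophil markers, Ms4a2 rose (0.20 ± 0.07) and Mcpt8 fell (-0.74 ± 0.12). Of 3 tested erythroid markers only Epor rose (0.22 ± 0.07). Of 3 tested megakaryocyte markers Pf4 rose by 3.84 ± 0.06, while Itga2b and Gp9 did not pass. Of 3 tested conventional dendritic cell markers, Flt3 fell (-0.80 ± 0.09) and the others did not pass. These markers were named after their values were seen. The myeloid genes S100a8 (12.33 and 12.78) and S100a9 (11.99 and 12.63) were high in Hoxa9 and Meis1 and in deleted cells, which are labelled as myeloid.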

How the data were processed

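The samples were 8 one-colour Affymetrix arrays of mouse bone marrow cells, 4 per group, grouped by title. The authors deposited 1 log2 value for each probe set in each array, a scale read from the range of 2.65 to 13.2. The 8 columns had nearly equal medians (4.69 to 4.74), as after normalization between arrays by the authors. The submitters' processing notes name MAS5 without a role. The summarisation is not given in the sources used, nor is the build. The number of arrays sets the precision.

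Of 45037 probe sets without the 104 controls, 28898 had 1 gene symbol in GEO's platform annotation, 551 had several and 15588 were unnamed here. Gene identifiers of 28689 matched a RefSeq table of GRCm38.p6, which changed 0 symbols. The 40% of probe sets with the lowest mean (below 4.29) were left out, which kept 27022. Each gene was read by its kept probe set of highest mean. The 11836 genes were tested in R 4.3.3 with limma 3.58.1 (lmFit, eBayes) with Benjamini-Hochberg adjustment over all of them and a threshold of 0.05. Each Toll-like receptor probe set was also tested alone, with no filter, adjusted over all 45037. The procedure was tested on simulated data. Python 3.11.15 searched the promoters, and matplotlib 3.10.9 drew the plots.

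The named genes were every member of the family, and up to 4 genes of each pathway list with the smallest p among those that passed; genes named outside this rule are said in the text to have been named after their values were seen. Defining markers of other cell types were named too. The members, lists and tests were chosen with earlier results of these data known. Alternatives covered an offset of 64, quantile and 75th percentile scaling, no filter or a 60% filter, probe sets averaged per gene, trend and robust moderation, array weights, a block for the replicate number, arrays split by a spiked control, and each array left out.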

Additional observations from a re-analysis of the deposited data

Results flagged for a closer look

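Of 26 combinations of a Toll-like receptor probe set and a group, 2 had an array far from the other 3, about as many as the 1 in 20 that chance flags. Tlr1 read 5.04 in Hoxa9 and Meis1 replicate 2, a gap of 0.863 of the group's range. The main comparison of Tlr1 without that array gave 2.28. The Tlr7 probe set 1449640_PM_at read 4.26 in Meis1 deleted replicate 4, a gap of 0.845 of the range, and this probe set lies under the filter.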

How the results depend on the processing

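Read by the probe sets that stood for them, Tlr1, Tlr2, Tlr6 and Tlr7 kept their direction and their call under every alternative run. The Tlr7 probe set 1419848_PM_x_at, under the filter, did not pass within the first bioB set. Tlr9 stayed short of the threshold with a negative sign. The number of members that rose was 4 throughout, apart from 5 with no filter, when Tlr8 was added. When probe sets were averaged per gene 1 member fell, Tlr4 (-0.28), which also fell by its second probe set alone (-0.47). Tlr5, which did not pass under any alternative, changed sign with array weights (0.016), within the second bioB set (0.059) and among the fits without 1 array (-0.052 to 0.067).

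Over all genes 4474 changed, against 2540 within the first bioB set. That set has fewer arrays and includes Meis1 deleted replicate 1, and the reason for its lower count was not tested. The count was 4206 when the spread was moderated over all kept probe sets, an alternative chosen after seeing the data. The median of the pathway genes (0.11) was 0.19 with the lowest 60% left out, 0.16 within the first bioB set and 0.10 to 0.17 without 1 array. Same-numbered samples did not deviate together in every pair (correlations of 0.03, 0.22, -0.13 and 0.29), and 1 of 4 Meis1 deleted samples correlated best with its own number. With the replicate number as a block 4433 genes changed, and the 4 members that rose still did. Dim signal limits Tlr3 and Tlr8, which lay under the filter, and Tlr9, whose means (4.60 in Meis1 deleted, 4.70 in Hoxa9 and Meis1) lay close to it.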
